A study of Mus musculus with 17 samples.

Results

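The response of the lung transcriptome to perfluorooctanoic acid (PFOA) was compared between mice without PPARα (PPARa KO) and mice with the human receptor in its place (hPPARa KI). The quantity described is the difference of 2 differences, PFOA minus vehicle in KO less PFOA minus vehicle in KI, on the log2 scale, and it is called the interaction here. A positive interaction means that the PFOA response was higher in KO than in KI. The genes were all autosomal genes with at least 20 counts summed over the libraries, which gave 26073 of the 26946 genes past that minimum and of the 31245 genes in the table. The comparison used 12 of the 17 lung libraries, 3 in each of 4 groups, and the 5 wildtype libraries entered only the filter, the scaling and the estimate of the spread.

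The KO vehicle, KO Hi-PFOA, KI vehicle and KI Hi-PFOA mice shared their origin, diet and water base. KO and KI animals came from breeding pairs that were null for mouse PPARα and heterozygous for human PPARα, so all 12 lacked the mouse receptor and the KI animals carried the human one. From 6 weeks of age they ate a diet modelled on that of American adults. The Hi-PFOA groups drank water with 6.2 µg/mL PFOA and 0.5% sucrose for 14 weeks, and the vehicle groups drank the sucrose water alone. All 6 KO mice were female, while each KI group held 2 females and 1 male (library 102 on vehicle and library 57 on PFOA). The labels number each library as its own animal, and values by library are given below in the order 137, 145, 149 (KO vehicle), 154, 155, 52 (KO Hi-PFOA), 102, 116, 135 (KI vehicle) and 139, 57, 80 (KI Hi-PFOA). All 3 KO Hi-PFOA libraries carried 1 i5 index (a library barcode, read here from the column names) that no KO vehicle library carried, so in KO the index and the exposure cannot be told apart.

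PPARα is a ligand-activated nuclear receptor that pairs with RXR and turns on genes of mitochondrial and peroxisomal fatty acid oxidation. PFOA is a fluorinated fatty acid analogue that activates this receptor in rodents, and the human receptor is known to respond less to it. The comparison of null with humanized lung asks whether the lung response differs with the human receptor present.

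The depth and the labels were checked first. The 12 libraries held 4116118 to 9237356 counts, so that 3 counts corresponded to 0.325 to 0.729 CPM, a gene's count relative to its library's TMM-scaled total, which is the unit of all levels here. The KO vehicle library 137 was the shallowest and stood apart, with 61.3% of its counts in protein-coding genes against 74.4 to 78.8% in the other 11. Among the wildtype libraries, which entered the estimate of the spread, vehicle library 122 was also low, at 65.3%. The lung marker was present in all 12 libraries, with Sftpc, the surfactant protein C gene of alveolar type 2 cells, at 677 CPM in library 137 and at 2040 to 3167 CPM in the others. Ppara (chromosome 15, 85734983 to 85802819, plus strand, mm10) cannot check the deletion from gene-level counts. It measured 9.17 to 11.8 CPM on vehicle and 8.82 to 11.3 CPM on PFOA in KO, and 12.7 to 15.3 CPM and 9.08 to 20.4 CPM in KI.

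A PPARα target and another gene separated the genotypes in all libraries except the one labelled KI Hi-PFOA 139, which lay at or below the level of the KO libraries. Pdk4, which restrains glucose oxidation and is a classical PPARα target, lay at 12.7 to 28.7 CPM in the 6 KO libraries, at 42.7 to 181 CPM in 5 of the 6 KI libraries and at 6.29 CPM in library 139. Zfp949, a zinc finger gene on chromosome 9, lay at 12.2 to 20.8 CPM in KO, at 41.6 to 49.4 CPM in the same 5 KI libraries and at 16.9 CPM in library 139. Both genes were singled out after their values were seen. Library 139 was below all 5 other KI libraries in 16 of 26 PPARα target genes and above all of them in 2. It was at or below the highest KO library in 25 of the 26 and the lowest of all 12 libraries in 4. These counts were made for library 139 alone, after it was singled out, and the same counts over all genes were not made. A level at or below the highest of 6 libraries is easy to reach, so the 25 does not show a KO-like level. When each library in turn was set against the genes that separated the other 11 by label, library 139 was nearer to the other genotype in 29 of 36 genes, KI Hi-PFOA 80 in 32 of 37 and KO vehicle 137 in 13 of 17, while the remaining 9 were nearer to their own label in more of the genes than not. The labels were kept, a mix-up was not tested, and several results are also given without library 139.

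**Figure D1:**
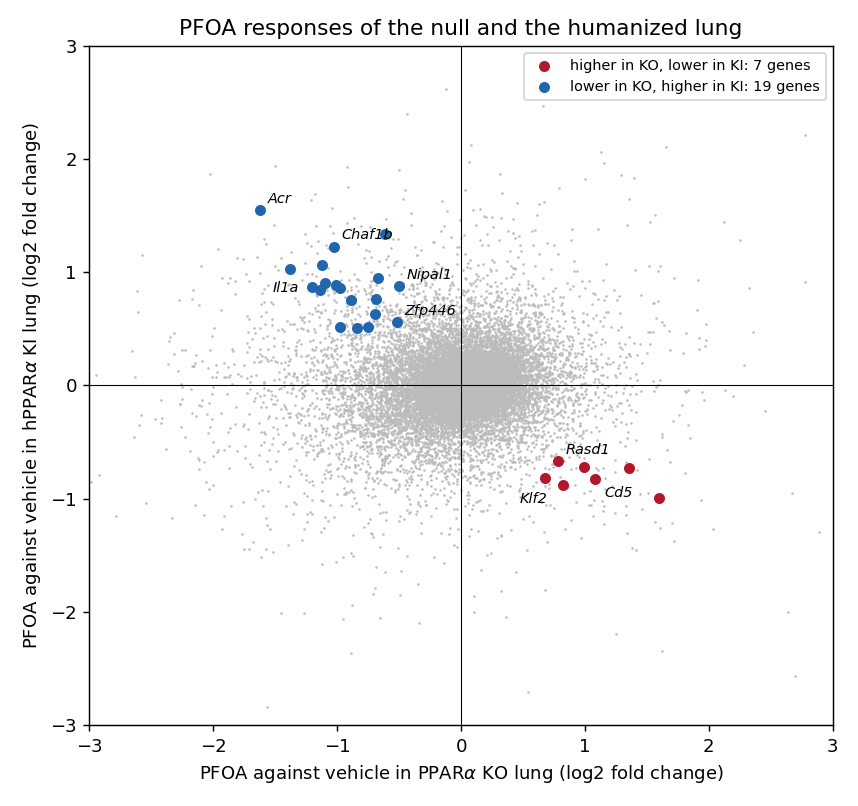
Each grey point is 1 autosomal gene with a mean of at least 1 CPM, placed by its fitted log2 fold change (PFOA against vehicle) in KO on the x axis and in KI on the y axis; 18651 of 18716 such genes lie within the axes. Coloured points are the 26 opposed genes, 7 at lower right (red) and 19 at upper left (blue).

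No gene passed the interaction threshold. With edgeR's quasi-likelihood test, an adjusted p under 0.2 and a difference over 1 on the log2 scale were met by 0 of 26073 genes (0%), and the smallest adjusted p was 0.249, for Klf2. At an unadjusted p under 0.05 there were 1422 genes (5.45%), of which 921 had a negative interaction (3.53% of all genes) and the others a positive one (1.92%). With upper-quartile scaling the split was 344 and 1174. DESeq2 on the same genes called 3 (0.0115%). Over all 26073 genes 46.7% had opposite signs in the genotypes. In the plot of genes with at least 1 CPM, the fitted KO effects spread more widely (SD 0.523 on the log2 scale) than the KI effects (SD 0.367).

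The negative side of the interaction depended on library 137. Among protein-coding genes 356 had a positive and 478 a negative interaction at an unadjusted p under 0.05. Among lincRNA genes the numbers were 3 and 108, and their median interaction was −1.01. Without library 137 the protein-coding split turned to 362 and 197, the lincRNA numbers were 11 and 32 with a median of −0.22, and the split over all genes turned to 568 and 377. Without KO vehicle library 149 that split was 817 and 1361. Library 137 had counts in 29747 genes, more than any other library, and its part in the lincRNA values was not tested beyond leaving it out.

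Opposed genes were defined by their levels: a mean of at least 1 CPM, a fold change of at least 0.5 on the log2 scale with opposite signs in KO and KI, and no overlap between the 3 PFOA and the 3 vehicle libraries in either genotype. They numbered 26 (0.0997%), of which 7 (0.0268%) were higher on PFOA in KO and lower in KI and 19 (0.0729%) were the reverse. Since the rule picked them for this pattern, their fold changes are a description. Separation of the libraries alone, of any size, held in KO for 6.83% of genes upward and 6.02% downward, and in KI for 4.45% and 3.79%. It held in both genotypes for 42 genes up in KO and down in KI (0.161%), 56 down in KO and up in KI (0.215%), 109 up in both (0.418%) and 74 down in both (0.284%). Of the 26 opposed genes 10 were protein-coding, and 21 had a mean under 5 CPM. Without library 137 there were 34, split 17 and 17, of which 20 were among the 26; without library 139 there were 52, split 14 and 38, of which 23 were. Fewer libraries make separation easier to reach.

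The sequences before the start sites of 4 opposed genes are printed because these genes carry the largest values in each direction among those with a RefSeq entry, and because the windows differ in the core promoter elements they hold. They are RefSeq windows of build GRCm38.p6, cut so that no transcribed base is included, and read 5′ to 3′ on the strand of the gene. Capitals mark GGGCGG or its reverse complement CCGCCC, the GC box bound by SP and KLF proteins, and TATAAA, the TATA box. Klf2 lies on chr8:72318812-72319032 (plus strand), Cd5 on chr19:10739003-10739224 (minus), Chaf1b on chr16:93883651-93883900 (plus) and Il1a on chr2:129309973-129310222 (minus).
Klf2: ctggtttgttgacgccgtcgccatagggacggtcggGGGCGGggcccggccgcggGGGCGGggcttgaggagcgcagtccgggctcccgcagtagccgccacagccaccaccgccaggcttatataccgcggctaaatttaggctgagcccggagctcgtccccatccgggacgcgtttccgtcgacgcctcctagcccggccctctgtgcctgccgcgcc
Cd5: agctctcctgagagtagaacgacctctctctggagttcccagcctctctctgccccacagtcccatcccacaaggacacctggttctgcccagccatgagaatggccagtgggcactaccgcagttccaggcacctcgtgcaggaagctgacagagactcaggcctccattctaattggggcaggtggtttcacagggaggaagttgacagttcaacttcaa
Chaf1b: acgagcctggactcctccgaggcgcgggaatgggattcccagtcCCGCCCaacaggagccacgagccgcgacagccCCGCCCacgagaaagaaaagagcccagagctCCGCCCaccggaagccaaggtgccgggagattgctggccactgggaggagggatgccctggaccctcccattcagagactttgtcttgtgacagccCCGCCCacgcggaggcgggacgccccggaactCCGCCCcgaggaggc
Il1a: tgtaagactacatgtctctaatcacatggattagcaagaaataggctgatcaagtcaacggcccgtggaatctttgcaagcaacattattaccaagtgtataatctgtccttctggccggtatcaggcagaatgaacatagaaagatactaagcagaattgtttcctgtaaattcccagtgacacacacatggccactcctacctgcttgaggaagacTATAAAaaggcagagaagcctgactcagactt
Both strands of 32851 promoter windows of 250 bases were searched. GGGCGG was found in 32.7% of them and in 5 of the 7 opposed protein-coding promoters with a sequence. TATAAA was found in 12.4% and, among the 7, in Il1a, and AGGTCA, the core of nuclear receptor sites, in 14.0% and, among the 7, in Ankrd35. Cd5 held none of these letters. Rasd1, Acr and Zfp446 had no entry.

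Klf2 (ENSMUSG00000055148, chromosome 8, 72319033 to 72321656) had the smallest interaction p of all genes. It encodes a zinc finger transcription factor that keeps endothelium and naive T cells quiescent and that is induced by shear stress. In KO it measured 52.5, 57.3 and 49.9 CPM on vehicle and 70.9, 110.0 and 102 CPM on PFOA. In KI it measured 137, 149 and 138 CPM on vehicle and 74.5, 72.5 and 83.8 CPM on PFOA. The PFOA libraries lay above all vehicle libraries in KO and below all of them in KI, and the vehicle levels of the genotypes did not overlap. The fold change was 0.82 in KO and −0.88 in KI on the log2 scale, and the interaction was 1.70 ± 0.28 (SE; edgeR quasi-likelihood test, adjusted p = 0.249). With DESeq2 it was 1.66 with an adjusted p of 0.00062. Over all alternatives it ran from 1.58 to 2.16, with an adjusted p from 0.00062 to 1.0, and without library 139 it was 1.68 (adjusted p = 0.555). Within the i5 indices shared by both KI groups the levels were 149 on vehicle against 83.8 on PFOA for libraries 116 and 80, and 138 against 74.5 for libraries 135 and 139. The wildtype means were 81.5 CPM on vehicle and 100.8 CPM on PFOA.

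The KO and KI levels of Klf2 were far apart on vehicle and close on PFOA. KO lay below KI by 1.41 on the log2 scale on vehicle, and above it by 0.29 on PFOA. Of the 26 opposed genes 19 also had a larger genotype gap on vehicle than on PFOA, and the gap changed sign in 24. Its median size was 1.11 on vehicle and 0.61 on PFOA, so as a set they were not close on PFOA. Over autosomal genes with a mean of at least 1 CPM the medians were 0.195 and 0.145. Among the 7 opposed genes up in KO and down in KI the gap was larger on vehicle in 4. Over all 26073 genes the gap was larger on vehicle in 60.7%, and over the 1422 genes with an unadjusted p under 0.05 in 68.8%. The vehicle libraries are part of the contrast that chose these genes, so the shares are descriptions.

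The other protein-coding genes higher on PFOA in KO and lower in KI were Cd5 and Rasd1. Cd5 (chromosome 19, 10717116 to 10739002) encodes a surface receptor of T cells and of a class of B cells that damps antigen receptor signals. It measured 2.99, 1.13 and 2.76 CPM in KO on vehicle, 4.79, 4.79 and 4.78 on PFOA, 4.93, 3.31 and 4.22 in KI on vehicle and 2.24, 2.17 and 2.57 on PFOA. Its interaction was 1.91 ± 0.48 (SE, edgeR quasi-likelihood test, adjusted p = 0.909), with a fold change of 1.08 in KO and −0.83 in KI on the log2 scale. Rasd1 (chromosome 11, 59963181 to 59964944), a Ras-like protein first described as induced by glucocorticoid, measured 2.53, 1.55 and 1.76 CPM in KO on vehicle, 2.77, 2.84 and 4.25 on PFOA, 5.89, 5.35 and 5.20 in KI on vehicle and 3.07, 3.88 and 3.34 on PFOA. Its interaction was 1.45 ± 0.45 (SE, same test, adjusted p = 0.909). All 3 KI vehicle libraries of Rasd1 lay above every other library of the comparison.

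Of other biotypes, Gm17829 and Gm15356 moved the same way. Gm17829 is a processed pseudogene inside Lrrc20 on the other strand, and it measured 1.15, 2.67 and 4.39 CPM in KO on vehicle, 9.05, 11.4 and 5.98 on PFOA, 6.69, 5.35 and 7.03 in KI on vehicle and 3.49, 2.85 and 3.21 on PFOA. Its interaction was 2.59 ± 0.47 (SE, edgeR quasi-likelihood test, adjusted p = 0.423). Gm15356 is an antisense gene that overlaps March1, with an interaction of 1.71 ± 0.47 (SE, same test, adjusted p = 0.909). How the counting used the strand is not given in the sources used here, so reads of these genes and of the genes they overlap may be mixed.

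The 7 protein-coding genes lower on PFOA in KO and higher in KI were Chaf1b, Phf19, Il1a, Zfp446, Acr, Ankrd35 and Nipal1. Chaf1b (chromosome 16, 93883901 to 93906115), a subunit of the complex that places histones on newly copied DNA, measured 6.91, 3.10 and 3.27 CPM in KO on vehicle, 2.88, 1.79 and 1.59 on PFOA, 1.43, 1.53 and 1.55 in KI on vehicle and 2.52, 4.22 and 3.85 on PFOA. The interaction of Chaf1b was −2.25 ± 0.59 (SE, edgeR quasi-likelihood test, adjusted p = 0.909), and its highest value was that of library 137. Phf19, a reader of methylated histone that belongs to a Polycomb complex, had an interaction of −1.44 ± 0.54 (SE, same test, adjusted p = 0.909). Phf19 was also highest in library 137, at 6.91 CPM against 2.96 and 3.14 in the other KO vehicle libraries.

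Il1a (chromosome 2, 129299610 to 129309972) encodes interleukin 1α, a cytokine released by damaged epithelium and by macrophages that acts through the interleukin 1 receptor. It measured 4.61, 9.01 and 7.28 CPM in KO on vehicle, 2.56, 2.09 and 4.52 on PFOA, 2.07, 1.4 and 1.83 in KI on vehicle and 4.61, 2.17 and 2.96 on PFOA. The interaction was −2.07 ± 0.58 (SE, edgeR quasi-likelihood test, adjusted p = 0.909). On vehicle all 3 KO libraries lay above all 3 KI libraries, and on PFOA the genotypes overlapped. The nearest vehicle and PFOA libraries measured 4.61 and 4.52 CPM in KO, and 2.07 and 2.17 CPM in KI. These gaps are smaller than 3 counts at this depth, so the separation of Il1a is narrow in both genotypes. Il1b, which encodes the other interleukin 1 agonist, did not share the pattern of Il1a: its interaction was 0.94 ± 0.76 (SE), with 3.80 to 5.30 CPM on vehicle and 9.90 to 11.4 CPM on PFOA in KO.

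The remaining opposed genes of this direction were at low levels, except Zfp446. Zfp446, a zinc finger gene, measured 15.7, 9.15 and 9.54 CPM in KO on vehicle, 8.73, 7.92 and 6.91 on PFOA, 7.16, 7.0 and 7.73 in KI on vehicle and 10.2, 10.8 and 11.3 on PFOA, with an interaction of −1.08 ± 0.34 (SE). The values of Acr, the acrosin protease of sperm, were 2.07, 1.27 and 2.13 CPM in KO on vehicle against 0.852, 0.449 and 0.399 on PFOA, and 1.11, 0 and 0.562 in KI on vehicle against 1.96, 1.71 and 1.16 on PFOA. These levels of Acr are within a few counts of the limit at this depth. Ankrd35, an ankyrin repeat gene, and Nipal1, a magnesium transporter, had interactions of −1.33 ± 0.49 and −1.38 ± 0.56 (SE). Of other biotypes, the transcripts Crnde and 2810410L24Rik had interactions of −1.49 ± 0.46 and −1.34 ± 0.43 (SE). The plot of these 10 protein-coding genes by library shows the crossing of the groups.

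**Figure D2:**
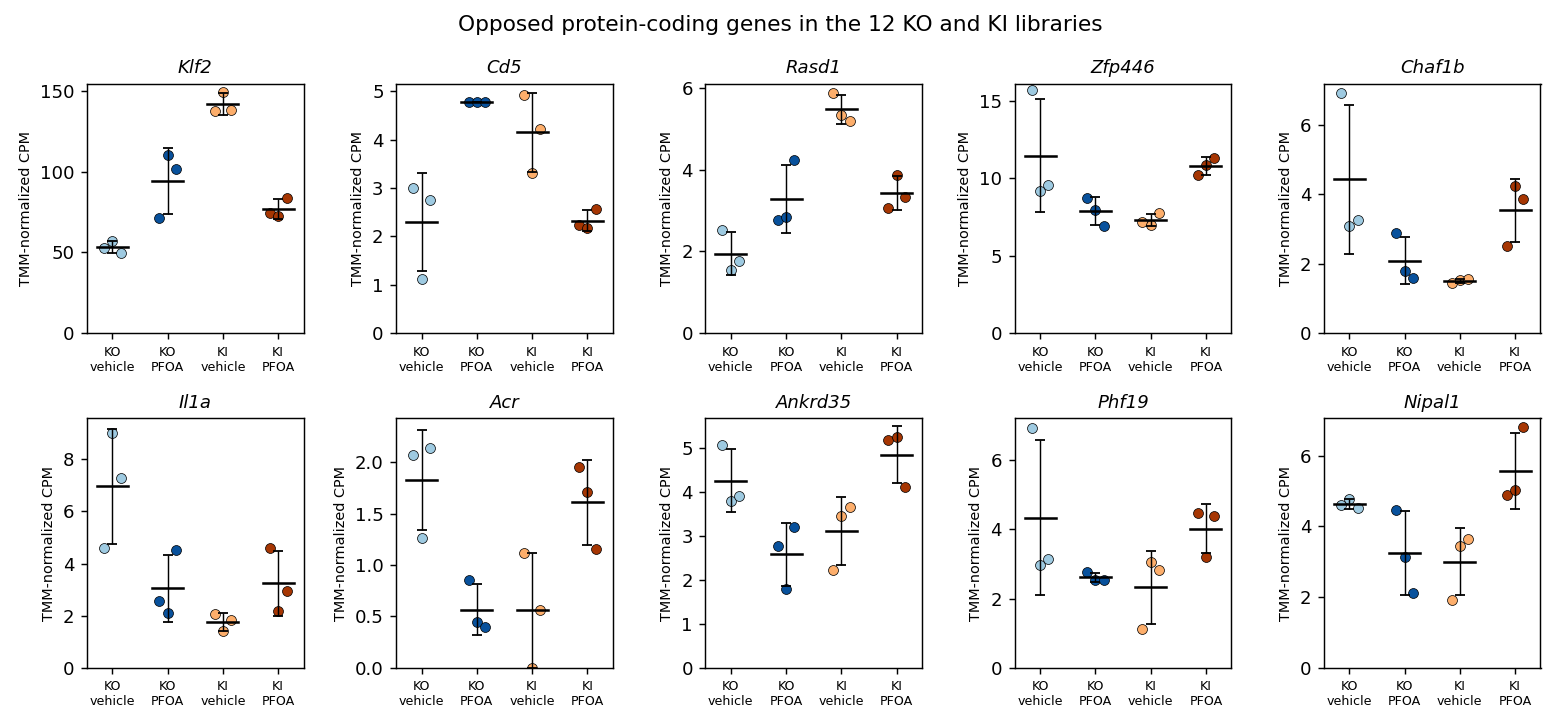
Each panel is 1 of the 10 opposed protein-coding genes, with TMM-normalized CPM on the y axis from 0 and the 4 groups on the x axis; points are libraries (3 a group), bars are means and whiskers are SD. Klf2, Cd5 and Rasd1 are higher on PFOA in KO and lower in KI, and the other 7 genes are the reverse.

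Outside the opposed set, 3 more genes were among the 6 smallest interaction p-values. Sla, an adaptor that lowers T and B cell receptor signalling, measured 17.7 to 25.2 CPM in KO on vehicle and 38.1 to 52.6 on PFOA, against 28.1 to 52.4 over both KI groups, and its interaction was 1.26 ± 0.31 (SE, edgeR quasi-likelihood test, adjusted p = 0.909). Satb1, a chromatin organizer of developing T cells, measured 29.0 to 31.3 CPM in KO on vehicle and 45.1 to 68.9 on PFOA, against 31.6 to 58.9 and 36.4 to 46.4 in KI, with an interaction of 1.13 ± 0.28 (SE). In both genes the KO groups were separate and the KI groups overlapped. The pseudogene Rpl15-ps6 had at most 1.59 CPM in KO and KI and a mean of 22.6 CPM in wildtype vehicle lungs, and its fitted interaction rests on 0 to 10 counts a library.

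Klf2 was also a member of a list of 21 immediate early genes, the genes that cells switch on within minutes of a stimulus and that tissue handling is known to raise. Of the 21, 8 had a positive interaction at an unadjusted p under 0.05 and 0 a negative one (background 1.92% and 3.53%), and 13 were up in KO and down in KI by sign (background 21.3%). The list's median fold change was 0.29 in KO and −0.32 in KI, and its median interaction was 0.50, against −0.03 over all genes. The 8 were Klf2, Nr4a1 (1.25 ± 0.50, SE), Dusp1 (1.18 ± 0.39), Klf4 (1.01 ± 0.33), Myc (0.78 ± 0.36), Btg2 (0.77 ± 0.20), Ccn2 (0.66 ± 0.31) and Zfp36 (0.61 ± 0.20). All 8 had an adjusted p of at least 0.249 with edgeR's quasi-likelihood test. Fosb was the lowest, at −0.82 ± 0.63 (SE).

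Btg2 and Zfp36 show the pattern at high counts. Btg2, an antiproliferative gene, measured 71.9, 84.2 and 73.8 CPM in KO on vehicle and 104, 107 and 96.7 on PFOA, and in KI 98.8, 152 and 114 on vehicle and 96.8, 93.7 and 94.4 on PFOA. Its groups did not overlap in either genotype, but the KI fold change of −0.35 was below the size set for an opposed gene. Zfp36, which speeds the decay of cytokine mRNA, measured 56.9, 47.8 and 45.7 CPM in KO on vehicle and 66.0, 56.2 and 61.0 on PFOA, and in KI 68.6, 87.6 and 85.6 on vehicle and 61.5, 58.2 and 73.8 on PFOA. For Zfp36 the groups overlapped in both genotypes. Dusp1, a phosphatase that ends MAP kinase signals, was highest in KI vehicle library 116, at 271 CPM against 118 and 149 in the other KI vehicle libraries, and its interaction was 0.76 without library 116.

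Summed over the 21 genes, the level was 980, 1174 and 1059 CPM in KO on vehicle and 1380, 1284 and 1341 on PFOA, and in KI 1417, 1996 and 1600 on vehicle and 1287, 1273 and 1445 on PFOA. The KO groups were separate and the KI groups overlapped at 1 library. On vehicle 17 of the 21 genes were lower in KO than in KI, with a median of −0.51 on the log2 scale. On PFOA 12 were, with a median of −0.08. Of all 26073 genes 12454 were lower in KO on vehicle and 13365 on PFOA. Over the alternatives the list held 6 to 9 positive and 0 or 1 negative genes, with a median interaction of 0.41 to 0.80. It held 7 and 0 (median 0.45) without library 116, 6 and 0 (0.55) without library 139, and 8 and 1 (0.49) without library 137. The time from death to freezing was not among the labels, and its part was not tested.

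**Figure D3:**
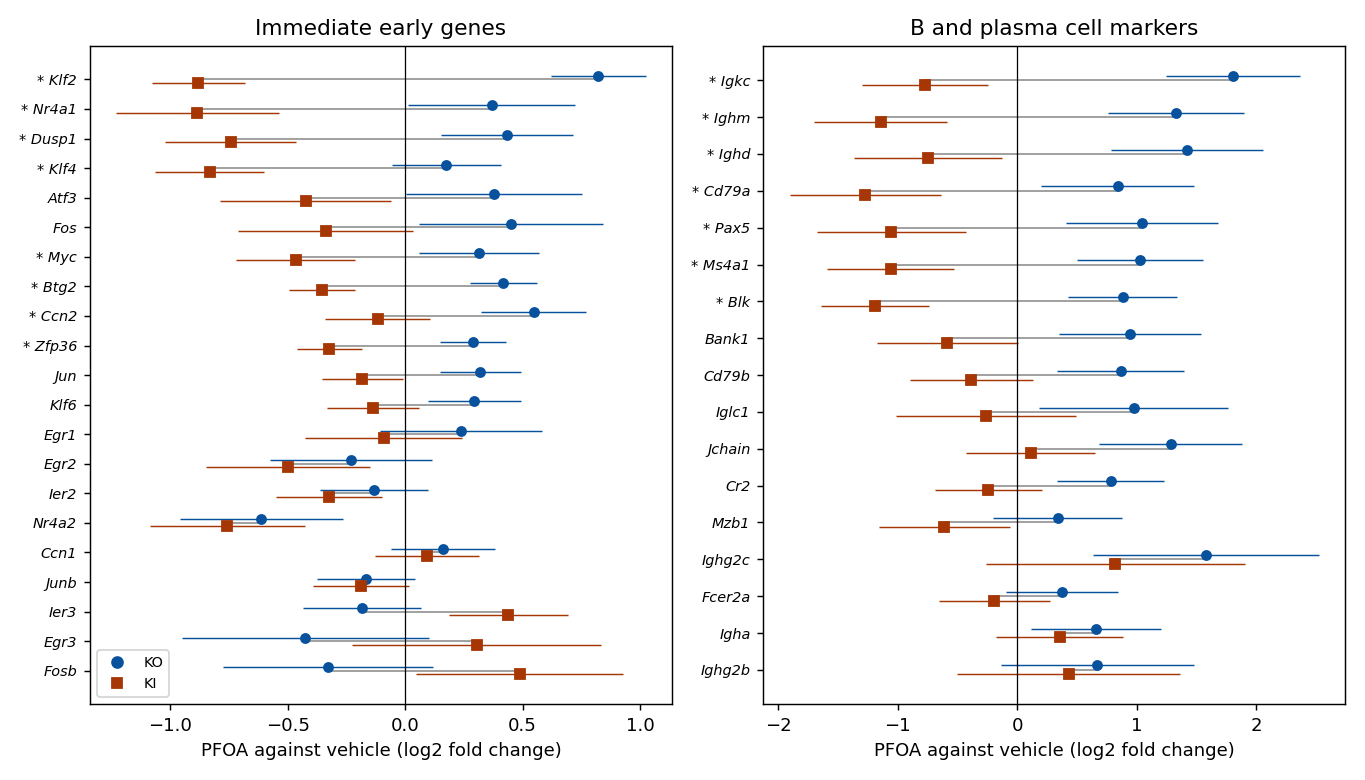
Log2 fold change (PFOA against vehicle, x axis) of the 21 immediate early genes (left) and 17 of the B and plasma cell markers (right), in KO (blue circles) and KI (brown squares), with SE as bars; an asterisk marks an unadjusted interaction p under 0.05. On the left 8 genes carry an asterisk and on the right 7, and 13 genes in each panel lie above 0 in KO and below 0 in KI.

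The B and plasma cell markers were higher on PFOA in KO and lower in KI by their median. Of 18 genes tested, 8 had a positive interaction at an unadjusted p under 0.05 and 0 a negative one (background 1.92% and 3.53%). All 18 interactions were positive, while over all genes 12361 of 26073 were. These background shares also apply to the lists below. The median fold change was 0.96 in KO and −0.60 in KI, and the median interaction was 1.39. Among them were Igkc (2.58 ± 0.77, SE), Ighm (2.47 ± 0.79) and Ighd (2.17 ± 0.89), which encode immunoglobulin chains, Cd79a (2.11 ± 0.90), Pax5 (2.10 ± 0.89), Ms4a1 (2.09 ± 0.75) and Blk (2.07 ± 0.64), which encode parts of B cell identity and receptor signalling. Ighg2b was the lowest, at 0.24 ± 1.28. Without KI vehicle library 102 the interaction was 1.56 for Ighm, 1.30 for Ighd, 1.11 for Pax5 and 1.17 for Blk. In whole lung, fewer B cells and less RNA per B cell cannot be told apart.

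The B and plasma cell values rested on libraries that varied widely within a group. Ighm measured 11.98, 33.1 and 26.8 CPM in KO on vehicle, 35.0, 93.2 and 55.9 on PFOA, 141, 14.5 and 62.3 in KI on vehicle and 40.2, 29.7 and 28.4 on PFOA. The KO groups of Ighm were separate, and the KI vehicle libraries spanned the whole range of the KI PFOA libraries. Summed over the B and plasma cell markers, KI vehicle library 102 held 523 CPM, 116 held 74.3 and 135 held 253, against 137 to 222 in KI on PFOA, 85.5 to 154 in KO on vehicle and 181 to 422 in KO on PFOA. With female libraries only, the B and plasma cell median was 0.96 in KO and 0.20 in KI, with 1 positive gene. That setting leaves out KI libraries 102 and 57, so sex and these animals cannot be told apart. With the i5 index as a covariate there were 0 positive genes and a median interaction of 0.58. The KO Hi-PFOA libraries shared their index with library 102 and with no other KO or KI library. That fit therefore cannot separate the index from the KO exposure and from library 102. Without library 102 there were 3 positive genes (median 0.9991), without library 116 there were 11 (1.90), without library 137 there were 5 (1.62) and without library 139 there were 11 (1.99). Leaving out KI Hi-PFOA 57 or KO Hi-PFOA 155 left 4 positive genes, and leaving out KI Hi-PFOA 80 left 5.

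**Figure D4:**
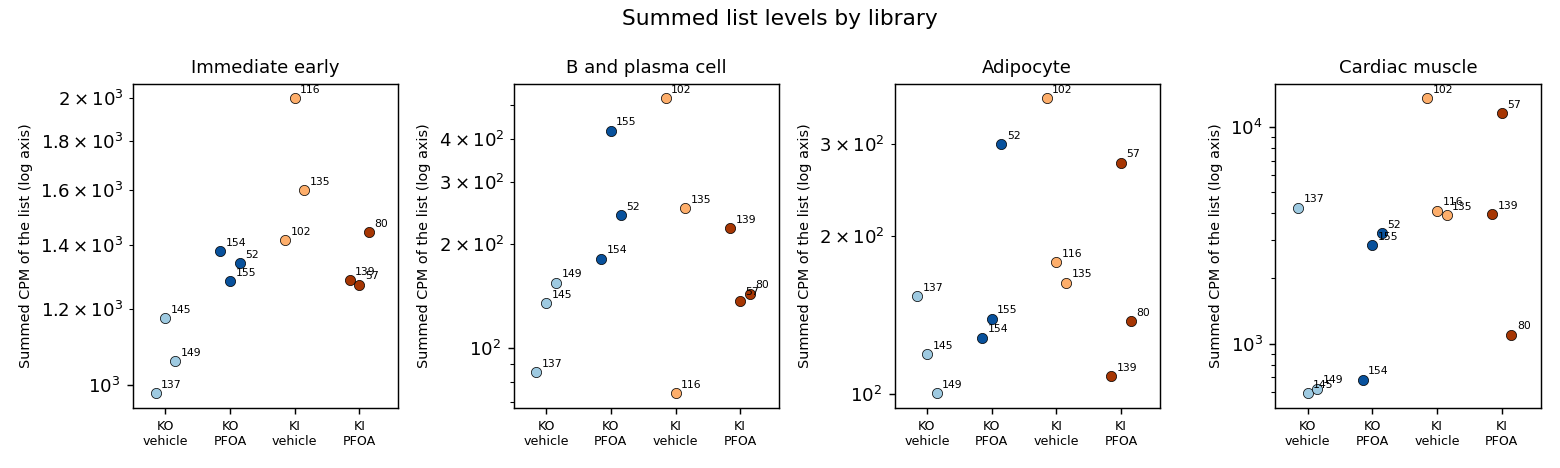
Summed CPM (log axis) of the immediate early, B and plasma cell, adipocyte and cardiac muscle lists in each of the 12 libraries, by group, with the animal number beside each point. KI vehicle library 102 is highest for the B cell, adipocyte and cardiac lists, and KI vehicle library 116 is highest for the immediate early list and lowest for the B cell list.

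The monocyte, NK and T cell and neutrophil lists had medians above 0 in both genotypes, unlike the B cell list, and positive median interactions. Their median fold changes were 0.74 in KO and 0.16 in KI for the monocyte list, 0.88 and 0.18 for the NK and T cell list and 1.399 and 0.41 for the neutrophil list. The monocyte list had 3 positive and 0 negative genes of 13 (Spn 1.29, Ms4a6c 1.24 and Ly6c2 1.21), with a median interaction of 0.62. That monocyte median was 0.22 without KI vehicle library 102, and 0.19 with 0 positive and 1 negative gene in female libraries. Ly6c2 was at 0.73 without KO Hi-PFOA 52. Ms4a4c was the highest of that list at 1.96 ± 1.21 (SE), and Lair1 the lowest at −0.86 ± 0.45. The NK and T cell list had 2 and 0 of 25 (Cd3g 1.32 and Lck 1.19), with a median of 0.48, and its lowest member was Cd8a at −0.11. The neutrophil list had 1 and 0 of 14 (G0s2 at 0.94), with a median of 0.96, between Ltf at 1.79 ± 1.84 and Lcn2 at 0.05 ± 0.43. Over the alternatives the positive members ran from 0 to 5 for the monocyte list, 0 to 6 for the NK and T cell list (6 without library 139) and 1 to 3 for the neutrophil list. Summed, NK and T cell markers lay at 89.5 to 104 CPM in KO on vehicle and at 142 to 195.4 CPM on PFOA, against 85.3 to 126 and 98.6 to 149 CPM in KI. The KO groups of that sum did not overlap and the KI groups did. The thymocyte list had 0 positive and 1 negative gene of 7 (Ptcra at −7.40 ± 2.59, at 2.99 CPM in library 137 and at most 0.571 CPM in the other KO and KI libraries) and a median of −0.97, which was 0.02 without library 137. Of its members at 1 CPM or more, Themis was highest at 0.38 and Ccl25 lowest at −0.05.

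Because Klf2 governs the homing of naive lymphocytes, a list of 11 genes of that programme was added after values had been seen. Its counts are therefore a description, and a link of these genes to Klf2 was not tested. The list had 5 positive and 0 negative genes (background 1.92% and 3.53%). Among them were Ccr7 (1.81 ± 0.57, SE), the chemokine receptor for entry into lymph nodes, Il7r (1.06 ± 0.33), the survival receptor of naive T cells, Itgb7 (0.86 ± 0.33) and Tcf7 (0.64 ± 0.27). Il7r measured 15.7, 14.9 and 17.3 CPM in KO on vehicle, 24.6, 35.3 and 30.03 on PFOA, 19.9, 21.4 and 29.7 in KI on vehicle and 17.3, 18.4 and 28.1 on PFOA. The KO groups of Il7r were separate and the KI groups overlapped. The median of the naive lymphocyte homing and maintenance list was 0.70 in KO, −0.11 in KI and 0.79 for the interaction, and the number of positive members was 2 to 6 over the alternatives. Of 8 endothelial genes linked to Klf2, also added later, 1 was positive, Klf4, and the median interaction was 0.07. Klf4 measured 102, 183 and 110 CPM in KI on vehicle and 73.9, 69.6 and 78.8 on PFOA, with no overlap, against 52.5, 74.3 and 72.1 and then 59.8, 81.9 and 83.8 in KO, where the groups overlapped.

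The metabolic genes nearest to PPARα had no member with an interaction past an unadjusted p of 0.05. The 26 PPARα target genes had 0 positive and 0 negative genes at an unadjusted p under 0.05, a median fold change of 0.16 in KO and −0.12 in KI, and a median interaction of 0.27. Without library 139 the KI median was 0.03 and the median interaction 0.12. Cpt1b, the muscle carnitine palmitoyltransferase, was highest at 3.09 ± 1.60 (SE) with 0 CPM in 2 of the 3 KO vehicle libraries (1.75 without KO Hi-PFOA 52 and 8.86 without library 137), and Acaa1b, a peroxisomal thiolase, lowest at −0.64 ± 0.50. On vehicle 22 of the 26 were lower in KO than in KI (median −0.53), and on PFOA 20 were (median −0.22). Of all 26073 genes 12454 were lower in KO on vehicle and 13365 on PFOA. Pdk4 had an interaction of 0.24 ± 0.95. The 16 receptor and cofactor genes had 0 and 0, with a median of 0.06, between Ppargc1a at 0.23 and Nr1i3 at −0.94 ± 0.71. The interaction of Ppara itself was −0.08 ± 0.35.

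Lists of lipid synthesis had medians above 0 in both genotypes. The 12 LXR targets had a median of 0.56 in KO and 0.53 in KI and of 0.05 for the interaction, with 1 negative gene, Abcg5, at −5.38 ± 2.52 (SE), which measured 2.53 CPM in library 137 and at most 0.571 CPM in the other KO and KI libraries. Scd1, the stearoyl-CoA desaturase, was the highest of the members with a mean of at least 1 CPM, among which the highest and lowest of every list were chosen, at 0.82 ± 0.52 (SE). It measured 228.5, 536.5 and 745.7 CPM in KO on vehicle and 1385, 1400 and 1637 on PFOA, and 798.5, 927.4 and 668.4 in KI on vehicle and 1377, 1224 and 1357 on PFOA. The groups of Scd1 were separate in both genotypes, and its interaction was 0.48 without library 137. Mylip, the ubiquitin ligase for the LDL receptor, was the lowest at −0.19 ± 0.37. Fatty acid synthesis had 0 and 0 of 19 (median 0.21) and cholesterol synthesis 0 and 0 of 20 (−0.03).

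Stress and signalling lists had at most 1 gene each past an unadjusted p of 0.05 in the main analysis. Heat shock had 1 positive and 0 negative genes of 11 (Dnajb1 at 0.98 ± 0.38, SE), a median of 0.49, and a highest member, Hspa1b, at 1.47 ± 1.02 that reached 169 CPM in KI vehicle library 116 against 15.12 and 15.04 in the other KI vehicle libraries. Hspe1 was lowest at −0.08. Without library 116 the heat shock list had 0 positive genes and a median of −0.05, with Dnajb1 at 0.52 and Hspa1b at −0.65. The clock list had 0 and 1 of 18 (Bhlhe41 at −0.77 ± 0.33) and a median of −0.28, between Npas2 at 0.90 and Dbp at −0.94 ± 0.49. Of the 18 circadian clock genes 8 were separate and lower on PFOA in KO and 0 in KI, against 6.02% and 3.79% of all genes. The 0 in KI is near that share, and in KO the i5 index and the exposure cannot be told apart. The summed level of the clock genes was 1319 to 1367 CPM on vehicle and 1041 to 1172 on PFOA in KO, against 1393 to 1619 and 1196 to 1738 in KI. The circadian clock list had 7 negative genes and 1 positive gene without KI Hi-PFOA 80. The interferon list had 1 and 0 of 27 (Bst2, a tethering factor for viruses, at 0.93 ± 0.40) and a median of −0.02, with Oas3 lowest at −0.82 ± 0.95. Its median fold change was 0.44 in KO and 0.39 in KI. The chemokine list had 0 and 1 of 21 (Ccl12 at −4.54 ± 1.99, under 1 CPM in all 12 libraries) and a median of −0.53. Among its members at 1 CPM or more Ccl17 was highest at 0.84 and Cxcl14 lowest at −0.72. The median of the chemokine ligands was −0.14 when library 139 was left out and 0.08 when the i5 index was a covariate. NRF2 targets (11 genes, median −0.07), the unfolded protein response (15, 0.17), cytochrome P450 and glutathione transferase genes (17, −0.01) and acute phase genes (17, 0.02) had 0 in either direction.

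Ripk3, the kinase that starts necroptosis, had a negative interaction. It measured 5.07, 5.35 and 4.14 CPM in KO on vehicle, 5.32, 3.74 and 3.59 on PFOA, 1.91, 2.93 and 2.25 in KI on vehicle and 4.89, 5.02 and 5.14 on PFOA. The KI groups of Ripk3 were separate and the KO groups overlapped, and the interaction was −1.26 ± 0.47 (SE, edgeR quasi-likelihood test, adjusted p = 0.909). It was the only 1 of 13 inflammasome and necroptosis genes past an unadjusted p of 0.05, and the list's median was 0.24. Il1b at 0.94 was its highest member, Nlrp3, the inflammasome sensor, was at 0.73 ± 0.57 and Aim2, a DNA sensor, at −0.11 ± 0.62.

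Of the 17 genes that the study compared by name across genotypes, 4 had a positive and 1 a negative interaction at an unadjusted p under 0.05, and the median was 0.07. The list was chosen by the study on these samples. The positive ones were Klf2, Ms4a6c and the Schlafen genes Slfn1 (1.498 ± 0.49, SE) and Slfn4 (1.499 ± 0.67), which are expressed in lymphoid and myeloid cells. Without KO Hi-PFOA 52 the interaction of Slfn4 was 0.83. Slfn1 measured 5.76, 3.38 and 4.27 CPM in KO on vehicle, 9.48, 15.4 and 20.9 on PFOA, 6.84, 5.22 and 6.19 in KI on vehicle and 10.3, 4.22 and 7.84 on PFOA. The negative one was Ripk3. The secretoglobin of club cells, Scgb1a1, was at −0.16 ± 0.41, Ccl5 at 0.39 ± 0.59, Tyro3 at 0.30 ± 0.36, Col1a1 at −0.29 ± 0.24 and Gas7 at 0.07 ± 0.24. Lrg1 was at 0.02 ± 0.32, and it was separate and higher on PFOA in both genotypes, at 15.7 to 29.1 against 42.2 to 42.6 CPM in KO and at 15.4 to 28.5 against 40.9 to 49.0 CPM in KI. Mfsd2a, a transporter of lysophospholipids, was at −0.46 ± 0.54 and was separate in both genotypes too.

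Markers of tissue that can come with a dissected lung differed widely between libraries of a group. The adipocyte list had the largest median interaction, 1.72, with 4 positive and 0 negative genes of 12 (Ucp1 7.01 ± 2.64, Plin1 5.26 ± 1.97, Adipoq 4.91 ± 2.13 and Cidea 2.87 ± 1.32, SE), and its lowest member was Adrb3 at 0.07. Plin1, which coats the fat droplets of adipocytes, measured 40.3, 3.44 and 4.50 CPM in KI on vehicle and 0.280, 7.08 and 0.385 on PFOA, against 3.23, 0.844 and 0.126 in KO on vehicle and 1.06, 4.79 and 17.5 on PFOA. Without KI vehicle library 102 the adipocyte list had 0 positive genes and a median of 0.77, without KO Hi-PFOA 52 it had 0 and 1.35, and without library 137 it had 5 and 2.92. Leaving out KI Hi-PFOA 80, KO vehicle 145 or KO vehicle 149 left 2 positive genes, and leaving out KI Hi-PFOA 57 left 6. The interaction of Ucp1 was 4.20 and that of Cidea 1.70 without KO Hi-PFOA 52, and that of Plin1 was 3.24 without library 102. The cardiac muscle list had 1 and 0 of 16 (Nppa at 9.37 ± 2.97), a median of 0.95 and a lowest member, Pln, at 0.25. Nppa, the atrial natriuretic peptide gene, measured 215 CPM in library 102 and at most 6.28 CPM elsewhere, and without library 102 its interaction was −0.37 and the cardiac muscle median −0.03; without library 137 that median was 2.73. Summed, the cardiac list ran from 591 to 4240 CPM in KO on vehicle, 681 to 3234 in KO on PFOA, 3909 to 13560 in KI on vehicle and 1097 to 11600 in KI on PFOA. The part of these tissues in other results was not tested. Erythroid genes had 0 and 0 of 8 (median 0.99). The erythroid median was 0.13 without library 102 and 0.58 without library 139, and in female libraries 4 of the 8 were positive (median 1.37).

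Lists of epithelial, endothelial and stromal lung cells had no member past an unadjusted p of 0.05. Markers of alveolar type 1 cells (12 genes, median −0.02), alveolar type 2 cells (15, 0.20), club cells (15, 0.31), ciliated cells (25, −0.12), endothelium (17, 0.13), fibroblasts (23, 0.05), smooth muscle (14, 0.15) and mesothelium (10, 0.30) had 0 genes at an unadjusted p under 0.05 in either direction. Without library 137 the median turned to −0.14 for alveolar type 2 cell, −0.17 for endothelial cell, −0.18 for fibroblast and collagen and 0.09 for ciliated cell markers, and club cell and airway secretory genes had 3 positive members and a median of 0.53. Without library 139 the median was 0.21 for ciliated cell, 0.62 for club cell and airway secretory and 0.08 for mesothelial cell markers. Alveolar macrophage markers had 1 and 0 of 14 (Cidec, a fat droplet gene, at 2.26 ± 0.86, SE, and 19.6 CPM in library 102), a median of 0.10 and a lowest member, Slc39a2, at −1.73 ± 0.84. Cidec was at 1.31 without library 102 and Slc39a2 at −1.10 without library 137. Oxidative phosphorylation genes had 1 and 0 of 37 (Ndufs7 at 0.68 ± 0.28) and a median of 0.30. Of the 37, 36 were positive (12361 of 26073 over all genes), and Ndufa8 was lowest at −0.06. Their sum was 951 CPM in library 137 against 1440 and 1503 in the other KO vehicle libraries. It was 2237 CPM in KI vehicle library 102 against 1794 and 1609, and 1503 to 2304 in KI on PFOA. Without library 102 the oxidative phosphorylation median was 0.21. Cytosolic ribosomal protein genes had 0 and 0 of 30 (median 0.38) and replication-dependent histones 0 and 0 of 21 (0.16). The ribosomal sum was 1327 CPM in library 137 against 2482 and 2634 in the other KO vehicle libraries. Over the alternatives the positive members ran from 0 to 9 for oxidative phosphorylation, 0 to 12 for cytosolic ribosomal protein and 0 to 3 for club cell and airway secretory genes. Cell cycle genes had 1 and 1 of 29 (Mcm6 at 1.23 ± 0.55 and Aurkb at −2.17 ± 0.87) and a median of −0.37, and Mcm6 was at 0.81 without library 137.

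**Figure D5:**
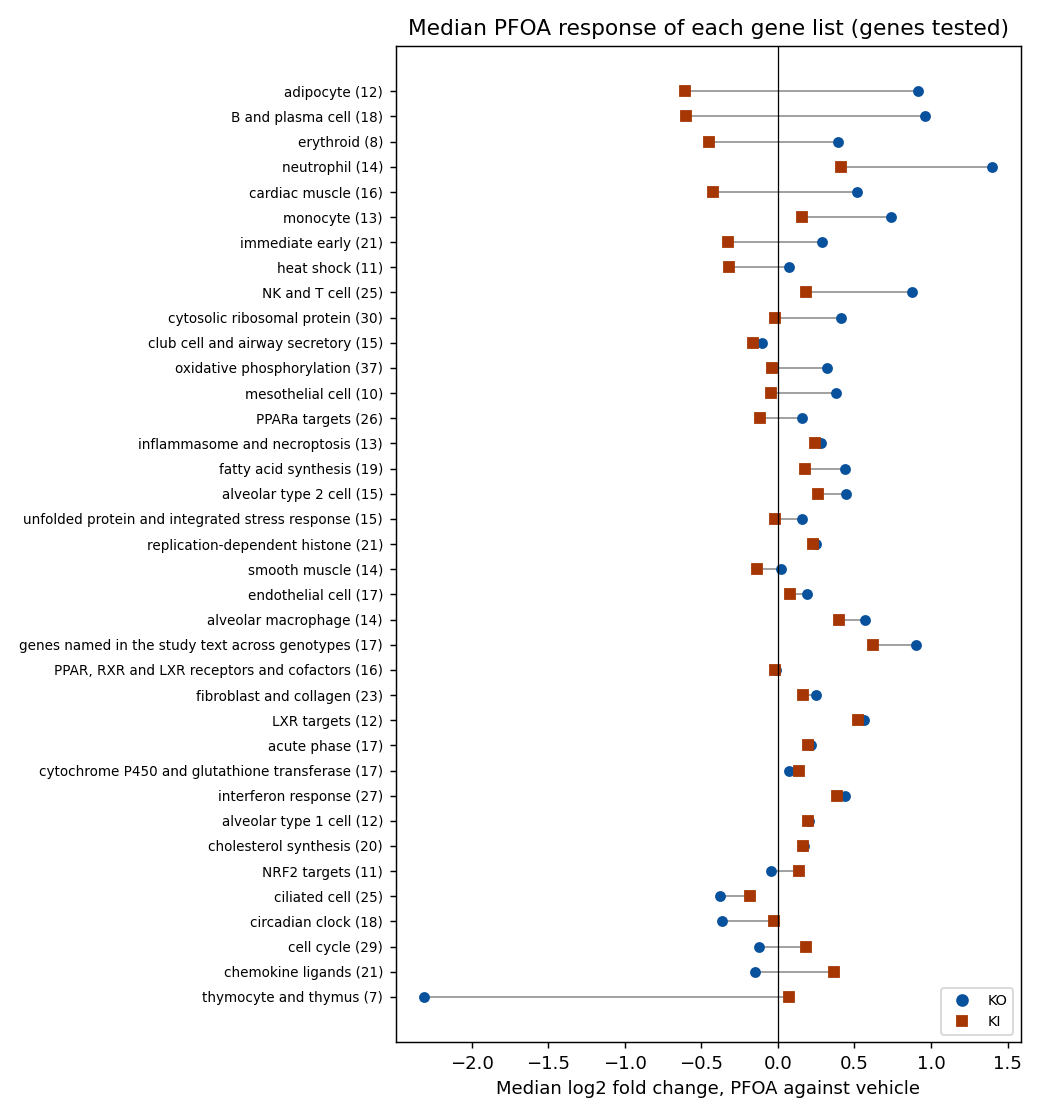
Median log2 fold change (PFOA against vehicle, x axis) of each of the 37 gene lists in KO (blue circles) and KI (brown squares), with the number of genes tested in parentheses and the lists ordered by median interaction. The adipocyte and B cell lists lie above 0 in KO and below 0 in KI, while LXR targets and interferon genes lie at nearly the same median above 0 in both.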

How the data were processed

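Lung RNA of 17 mice was sequenced from stranded total RNA libraries (SMARTer Stranded Total RNA-Seq Pico). Read alignment to mm10 (STAR 2.6) and gene-level estimation by expectation maximization were done by the authors in Partek Flow. They deposited estimated counts per gene without normalization, and 29.9% of the values are not whole numbers. The annotation and the strand setting are not given in the sources used here. Of the gene names 96.7% were found once in GENCODE M21.

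Rounded counts were used, and genes with a total of at least 20 were kept, and 4299 were left out. There were 243 genes at a total of 20 and 278 at 19. edgeR 4.0.16 (R 4.3.3) scaled libraries by TMM and fitted 1 coefficient for each group of the 17 libraries by quasi-likelihood. Benjamini-Hochberg adjustment ran over all 26946 genes. A call needed an adjusted p under 0.2 and over 1 on the log2 scale, as the study's FDR and fold thresholds. DESeq2 1.42.0 and limma 3.58.1 (voom) were alternatives. The code was tested on simulated data. No replicate pair was within sampling noise (smallest chi-square over its degrees of freedom 5.75), so each library counted once. p-values measure the spread between mice.

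The members and gene lists were chosen with earlier results of these data known. Genes named were Ppara, the opposed protein-coding genes (up to 10 a direction) and 2 of other biotypes a direction, the 6 smallest interaction p-values, the study's 17 genes, genes called by DESeq2, and the highest and lowest member of each list at 1 CPM or more. Lists with 0 genes at an unadjusted p under 0.05 are given by count and median alone, except those of PPARα. List members past that p, the naive lymphocyte and Klf2-linked endothelial lists, and Pdk4, Sftpc and Zfp949 were picked after their values were seen. Some genes of the lists are not reported here by name and are not drawn, and the list counts and medians include them. Of 632 listed genes 22 were in more than 1 list. For the label check, a gene separated the genotypes when the groups did not overlap, the log2 means (CPM + 0.5) differed by at least 0.5 and the mean was at least 5 CPM. Promoters came from RefSeq (GRCm38.p6) and were cut before the RefSeq and GENCODE starts. Figures were drawn with matplotlib 3.10.9.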

Additional observations from a re-analysis of the deposited data

Results flagged for a closer look

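With DESeq2 on the same genes, the PFOA response differed between KO and KI past the threshold for 3 genes, by the test of the interaction itself. Klf2 had an interaction of 1.66 (adjusted p = 0.00062, DESeq2). Gm17829 had one of 2.57 (adjusted p = 0.0105, DESeq2), and the pseudogene overlaps Lrrc20. Rpl15-ps6 had one of 8.80 (adjusted p = 0.0207, DESeq2), with 0 CPM in all KO vehicle and KI PFOA libraries and at most 0.745 CPM in KO PFOA libraries. None of the 3 passed with edgeR's quasi-likelihood test in the main analysis. Klf2 passed with that test under robust estimation (adjusted p = 0.121), with no filter (0.151) and with the protein-coding share as a covariate (0.162). It also passed when only the 12 compared libraries were fitted (0.0558), without KO Hi-PFOA 154 (0.0743) and without KI vehicle 116 (0.181). Leaving out any other library of the comparison gave an adjusted p of at least 0.412 with the same test.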

How the results depend on the processing

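Of 99 named genes 69 kept the direction of their interaction under all 28 alternatives, 12 of which left out 1 library each, and 30 reversed under at least 1. Of the 76 with a main value of at least 0.5 in size 9 reversed. The number of interaction calls was 0 in the main analysis, 3 with DESeq2 (with or without its default filters), and 1 with no filter, robust estimation, 12 libraries fitted, female libraries only, the i5 index, the protein-coding share, or limma voom with sample weights. It was 0 to 7 when each library was left out. The 1422 genes at an unadjusted p under 0.05 became 903 with filterByExpr, 855 with female libraries and 682 with B cell marker level as a covariate, and 945 to 2178 when each library was left out (without KO vehicle 137 and 149). Positive and negative genes were 725 and 534 with the protein-coding share, 724 and 727 with voom, and 344 and 1174 with upper-quartile factors. The 26 opposed genes became 77 with female libraries, 4 at a fold change of at least 1 and 5 at a mean of at least 5 CPM, and 34 to 77 when each library was left out (without KO vehicle 137 and KI vehicle 116). Interactions of the opposite sign were found under these alternatives. With DESeq2 on the same genes they were Lrg1 −0.012. With DESeq2 with its default filters they were Lrg1 −0.012. With RLE factors they were Lrg1 −0.012. With upper-quartile factors they were Gas7 −0.028, Lrg1 −0.064, Lcn2 −0.029, Adrb3 −0.052. With filterByExpr they were Lrg1 −0.021. With sex as a covariate they were Lrg1 −0.013, Lcn2 −0.012. With female libraries only they were Ppara 0.18, Ccl5 −0.14, Hspe1 0.21, Adrb3 −0.49. With i5 index as a covariate they were Ppara 0.030, Tyro3 −0.062, Scgb1a1 0.46, Mfsd2a 0.21, Hspe1 0.67, Oas3 0.080, Ltf −0.25, Ighg2b −0.27, Ccl25 0.23, Adrb3 −0.68, Ndufa8 0.22, Ccl12 0.076. With protein-coding share as a covariate they were Gas7 −0.034, Lrg1 −0.087, Lcn2 −0.090, Cd8a 0.25. With limma voom with sample weights they were Gas7 −0.016, Lrg1 −0.069, Lcn2 −0.13, Cd8a 0.73, Adrb3 −0.046. Without the 2 libraries of low protein-coding share (KO vehicle 137 and wildtype vehicle 122) they were Ppara 0.00034, Gas7 −0.068, Lrg1 −0.17, Lcn2 −0.24, Cd8a 0.65. With B cell marker level as a covariate they were Ppara 0.13, Ccl5 −0.37, Gas7 −0.089, Mfsd2a 0.027, Hspe1 0.22, Ms4a4c −0.79, Ighg2b −0.46, Ccl25 0.080, Pln −0.17, Adrb3 −0.48, Cd79a −0.19, Pax5 −0.55, Ighd −0.058. With each library left out, genes that reversed ran over these ranges: Ppara −0.33 to 0.23, Scgb1a1 −0.29 to 0.13, Gas7 −0.062 to 0.18, Lrg1 −0.16 to 0.26, Mylip −0.42 to 0.021, Aim2 −0.48 to 0.28, Ppargc1a −0.016 to 0.52, Hspa1b −0.65 to 1.94, Hspe1 −0.52 to 0.20, Ltf −0.0085 to 6.28, Lcn2 −0.23 to 0.39, Cd8a −0.47 to 0.66, Ighg2b −1.05 to 1.36, Themis −0.066 to 0.65, Ccl25 −0.21 to 0.094, Nppa −0.37 to 10.70, Pln −0.21 to 1.02, Adrb3 −0.40 to 0.38, Ndufa8 −0.21 to 0.093, Pdk4 −0.30 to 1.36, Zfp949 −0.035 to 0.56. The B cell covariate is the sum of the markers themselves, so the reversals of Ighg2b, Cd79a, Pax5 and Ighd in that fit cannot be read apart from it. The cause of the other changes was not tested. The fit with the i5 index is limited because in KO the index and the exposure cannot be told apart. No paired analysis was possible because the groups share no replicate numbers. Depth limits genes near 1 CPM, where 3 counts are 0.325 to 0.729 CPM before TMM scaling. An adjusted p threshold of 0.05 left 0 calls.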

Other observations

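Leaving out KI vehicle library 116 gave the largest number of interaction calls with edgeR's quasi-likelihood test, 7. Besides Klf2, Gm17829 and Rpl15-ps6, these were Satb1 (1.38, adjusted p = 0.163), Syk (1.67, adjusted p = 0.163), a kinase of B cell receptor signalling, Traf3ip3 (1.79, adjusted p = 0.163), a lymphocyte gene, and the pseudogene Gm7846 (−7.76, adjusted p = 0.163). They were named after their values were seen. The KI arm then held 2 vehicle libraries, of which library 102 had the highest B and plasma cell marker sum of the 12.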
